A study of Mus musculus with 8 samples.

Results

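The 33 genes described here are mouse cadherins with a Cdh symbol and protocadherins that lie outside the clustered arrays. They were taken by symbol from a list of names, which does not hold every non-clustered protocadherin (Pcdh11x and Pcdh12 are not in it), and make up 33 of 21631 protein-coding loci. A locus is the span of the gene in the RefSeq table for GRCm38.p6, the assembly that mm10 represents, with 10 kb added on either side. The measure is the number of bases of the locus that lie under peaks of histone H3 lysine 4 methylation (H3K4me), given in kb or as a share of the locus. All 33 symbols had a locus, and 27 of these loci held no other protein-coding gene.

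Cadherins are calcium-dependent adhesion proteins that span the membrane and bind partners on the neighbouring cell, usually of the same kind. Classical cadherins hold on to the actin skeleton through catenins, and in the developing cortex N-cadherin (Cdh2) builds the adherens junctions at the ventricular surface to which radial glia are anchored. Type II cadherins and the delta-protocadherins are each made by subsets of neurons and progenitors and are studied for their part in cell sorting, axon guidance and synapse formation. Methylation of lysine 4 of histone H3 in its single-methyl form, for which the antibody is catalogued, is found at enhancers and on the flanks of promoters.

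Chromatin came from lysates of the whole cerebral cortex of E15.5 embryos and was cut with micrococcal nuclease without crosslinking before ChIP-seq, in which an antibody recovers DNA on modified histones for sequencing. The 2 control libraries (WT) were from embryos of genotype Prdm16 flox/flox, in which both alleles of Prdm16, a zinc finger regulator of transcription made by radial glia, carry loxP sites but no Cre is present. The 2 mutant libraries (cKO) were from embryos of genotype Emx1Ires-Cre; Prdm16flox/flox, so the floxed alleles were common to both groups, and an effect of the Cre allele itself cannot be told apart from an effect of losing Prdm16. Emx1 drives Cre in progenitors of the dorsal telencephalon and their descendants, so a whole lysate still holds cells without recombination, such as vessel cells, microglia and interneurons that migrate in. The labels do not say whether a library holds 1 embryo or several, and p-values below measure only the spread between these libraries, which may be technical.

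The deposited lists held between 66476 and 82683 peaks, and both cKO lists were longer and wider than both WT lists, with a ratio of 1.29 for all bases covered. They hold no read counts, so sequencing depth is unknown. The Prdm16 locus itself had 153.8 and 143.5 kb under peaks in WT and 171.3 and 181.7 kb in cKO, values that do not check the deletion, since no reads over the floxed part are listed. Loci of 11 cortical progenitor and neuron genes, among them Emx1, Pax6, Sox2 and Tbr1, had a median covered share of 64.2% ± 2.26 (SD over the 4 libraries), and all 11 lay above the 80th percentile of protein-coding loci. The medians were 5.92% ± 1.15 for 6 endothelial and pericyte genes, 2.83% ± 0.842 for 6 genes of microglia and blood, 13.0% ± 2.27 for 4 genes of meninges and fibroblasts and 1.53% ± 1.42 for 4 genes of other tissues, of which Alb and Krt5 had no peak in any library. In a whole lysate a lower number of cells of a type and less of the mark per cell cannot be told apart.

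The mark was spread very unevenly over the family. The median covered share of the 33 loci was 6.69% and 5.41% in the WT libraries and 8.12% and 8.83% in the cKO libraries, against 5.16%, 4.14%, 6.34% and 7.14% over all protein-coding loci. By their means over the 4 libraries, 19 of the 33 lay above the median locus and 6 above the 80th percentile, and the means ran from 0% for Cdh19 to 35.2% for Pcdh8. The 6 loci with over 20% covered were those of Pcdh8, Pcdh1, Cdh2, Cdh22, Cdh4 and Cdh24, and 8 loci had under 2%. Peaks were found in all 4 libraries at 31 loci. Cdh19, a cadherin of Schwann cells, had none in any library, and Cdh9 had a single peak of 0.634 kb in the second cKO library.

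**Figure D1:**
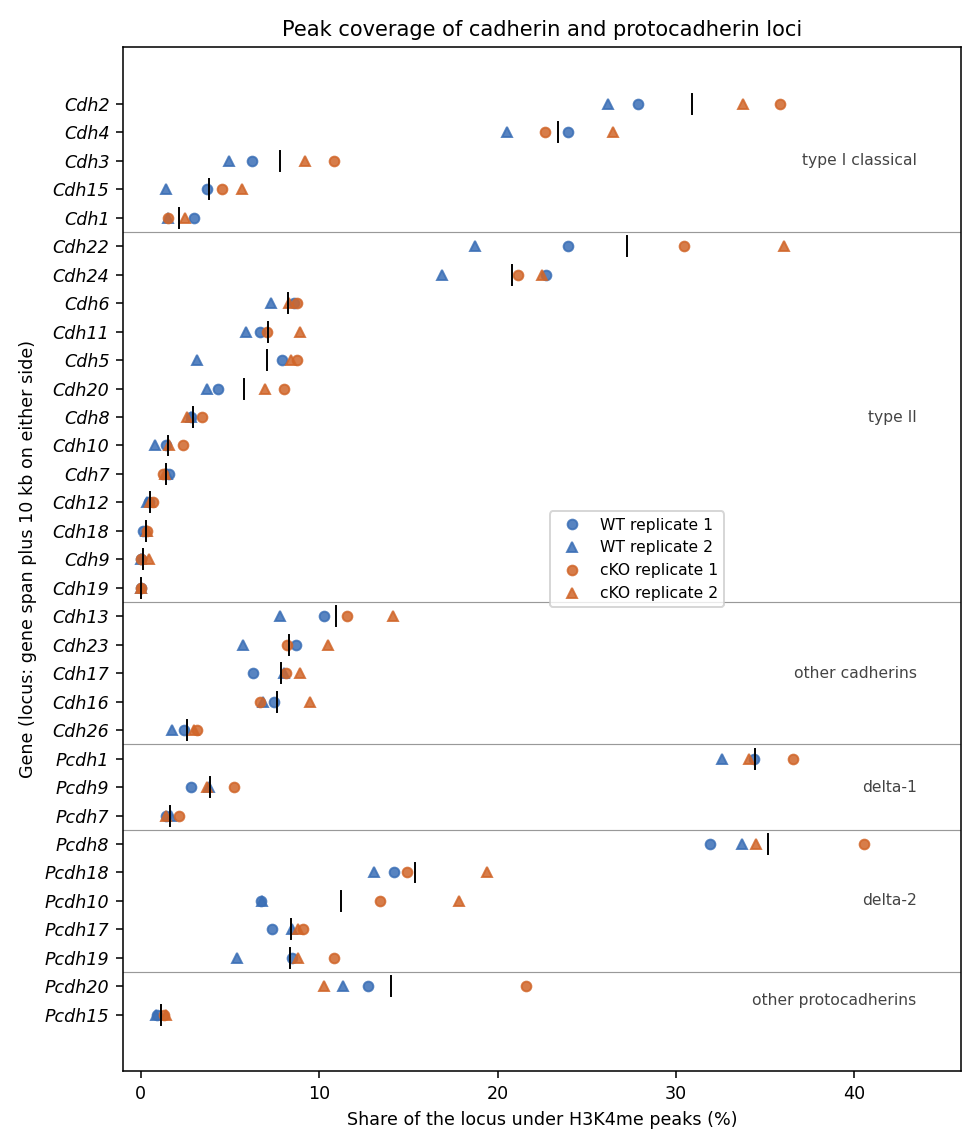
Share of each locus under H3K4me peaks (%), by gene and class; circles and triangles are replicates 1 and 2, blue is WT, orange is cKO, and the vertical tick is the mean of the 4 libraries. Pcdh8, Pcdh1, Cdh2, Cdh22, Cdh4 and Cdh24 stand above 20% while Cdh19 is at 0, and at Pcdh10 both cKO points lie well to the right of both WT points.

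Among the type I classical cadherins, the 2 cadherins of the neural tube and its derivatives carried most of the mark. Cdh2 (N-cadherin) had 67.1 and 62.9 kb under peaks in WT and 86.2 and 81.2 kb in cKO, or 30.9% ± 4.62 of its locus (SD, n = 4 libraries). Cdh4 (R-cadherin, made in the developing brain and retina) had 114.2 and 97.9 kb (WT) and 108.1 and 126.2 kb (cKO), or 23.4% ± 2.48. Both cKO values lay above both WT values at Cdh2, as at 59.8% of all loci tested, and the genotypes overlapped at Cdh4. The same share stands beside every member below whose covered kb did not overlap with cKO higher, since both cKO lists were longer. At both genes the mark lay almost wholly between the ends of the gene, with 99.3% of covered bases in the gene span of Cdh2 and 98.4% in that of Cdh4.

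Within Cdh2 the coverage was concentrated in one stretch. The 50 kb window with the most bases under peaks, chr18:16668877-16718876, was covered over 60.7% and 59.3% of its length in WT and 73.5% and 67.8% in cKO, and it held 44.0% of the covered bases of the locus. It includes the longest interval under a peak in all 4 libraries of any member, 9915 bp at chr18:16707655-16717569, and the widest single member peak, 19402 bp in the first cKO library. Cdh4 held 45 intervals shared by the 4 libraries, 82.0 kb in all, of which the longest was 9748 bp at chr2:179530426-179540173. Its densest 50 kb, chr2:179752423-179802422, was covered over 48.4% ± 2.19 (SD, n = 4) and held 21.7% of the covered bases of a locus of 477.0 kb, against 240.4 kb for the Cdh2 locus.

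The other type I genes had far less. Cdh3 (P-cadherin, of epithelia and placenta) had 4.12 and 3.25 kb (WT) and 7.15 and 6.08 kb (cKO), with both cKO libraries above both WT libraries. Cdh15 (M-cadherin, of muscle and cerebellum) had 1.45 and 0.547 kb (WT) and 1.77 and 2.21 kb (cKO), again without overlap. Cdh1 (E-cadherin, of epithelia) had 2.59 and 1.32 kb (WT) and 1.33 and 2.16 kb (cKO), and the genotypes overlapped. At Cdh1 a single interval of 1189 bp was covered in all 4 libraries, at the lower-coordinate end of the gene (chr8:106603076-106604264).

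The 13 type II cadherins had a median covered share of 2.91% ± 0.347 (SD, n = 4), and only 5 of them lay above the median of all loci. Cdh22 had the highest share, 27.3% ± 7.57, with 34.4 and 26.8 kb (WT) and 43.7 and 51.7 kb (cKO). Its densest 50 kb window was covered over 30.0% and 26.0% in WT and 34.7% and 45.6% in cKO. Both cKO values of Cdh22 lay above both WT values. Cdh24 came next at 20.8% ± 2.71, with 7.01 and 5.21 kb (WT) and 6.52 and 6.95 kb (cKO), but 62.5% of its covered bases lay within the neighbouring genes Psmb11 and Acin1, and its own gene span held 36.4%. Its genotypes overlapped.

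Cdh20 had 10.8 and 9.10 kb under peaks in WT and 19.9 and 17.2 kb in cKO, with no overlap between the genotypes. Its start lay under a peak in all 4 libraries, and that peak measured 1944 and 2957 bp in WT and 4788 and 4419 bp in cKO. Cdh6, made in subdivisions of the early forebrain, had 14.4 and 12.3 kb (WT) and 14.7 and 14.0 kb (cKO). Cdh8, made in regional patterns across the cortex, had 11.7 and 11.6 kb (WT) and 14.1 and 10.7 kb (cKO). For Cdh6 and Cdh8 the genotypes overlapped.

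Cdh7 was the only member at which both cKO libraries held fewer covered bases than both WT libraries, as at 1.22% of all loci tested. It had 2.87 and 2.64 kb (WT) and 2.27 and 2.48 kb (cKO), and 95.3% of this lay in a 50 kb window that holds its start. Cdh18 had 1.03 and 2.56 kb (WT) and 3.51 and 3.43 kb (cKO) in a locus of 948.6 kb, a share of 0.28% ± 0.12 (SD, n = 4), and its genotypes did not overlap. The remaining type II genes with peaks in every library had means from 0.50% at Cdh12 to 7.15% at Cdh11. They include Cdh5 (VE-cadherin, the endothelial cadherin), with 4.97 and 1.98 kb (WT) and 5.51 and 5.28 kb (cKO). Of the 6 endothelial and pericyte genes, 5 had peaks in all 4 libraries and Tek in 1, and the median share of the list was 6.38%, 4.26%, 6.11% and 6.93% in the same order. The part of vessel cells in the Cdh5 values was not tested.

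Of the cadherins outside these classes, Cdh13 (T-cadherin, which is held in the membrane by a lipid anchor and lacks the cytoplasmic tail) had the most covered bases of any member by the mean of the 4 libraries, though in the second WT library Cdh4 had more. It had 123.9 and 93.8 kb (WT) and 139.3 and 170.3 kb (cKO), with no overlap between the genotypes. In a locus of 1205 kb this was 10.9% ± 2.64 (SD, n = 4), well above the 0.50%, 0.28% and 1.11% of the other 3 loci longer than 900 kb, those of Cdh12, Cdh18 and Pcdh15. Its 61 shared intervals held 78.8 kb, the longest being 7751 bp at chr8:118283143-118290893. Cdh23 (a tip-link protein of hair cells) had 8.28% ± 1.98, and 28.8% of its covered bases lay in 3 other genes, Psap, Vsir and Gm17455. Cdh17 and Cdh16, cadherins of intestine and kidney, had 7.84% ± 1.11 and 7.62% ± 1.28, and at Cdh16 74.9% of covered bases lay in the neighbours Pdp2 and Rrad. Cdh26 had 2.57% ± 0.627, and 1 shared interval of 1293 bp within the gene.

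Among the delta-1 protocadherins, Pcdh1 stood apart with 15.9 and 15.0 kb (WT) and 16.9 and 15.7 kb (cKO), or 34.4% ± 1.65 (SD, n = 4) of a short locus. It had an interval of 7541 bp in all 4 libraries that crossed the higher-coordinate end of the gene (chr18:38209564-38217104), and 34.6% of covered bases lay in the gene span. Pcdh9 and Pcdh7 lie in loci of 899.1 and 437.1 kb and had shares of 3.88% ± 0.99 and 1.66% ± 0.36. Pcdh9 had 25.1 and 34.2 kb (WT) and 46.7 and 33.5 kb (cKO), and Pcdh7 had 6.05 and 7.40 kb (WT) and 9.42 and 6.16 kb (cKO). At all 3 delta-1 genes the genotypes overlapped.

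The delta-2 protocadherins had the highest median share of the classes, 12% ± 4.51 over the 4 libraries, and all 5 lay above the median of all loci. Over the 33 members the covered share tended to be lower in longer loci (Spearman rho −0.41), and the classes were not compared at equal length. Pcdh8 had 7.83 and 8.28 kb (WT) and 9.95 and 8.47 kb (cKO), or 35.2% ± 3.75 of its locus. Pcdh18 had 4.83 and 4.45 kb (WT) and 5.09 and 6.61 kb (cKO), or 15.4% ± 2.78. Pcdh10 (OL-protocadherin, studied in axon growth and circuit formation) had 5.14 and 5.19 kb (WT) and 10.2 and 13.6 kb (cKO), or 11.2% ± 5.42. Pcdh17 and Pcdh19, the latter an X-linked gene whose mutations underlie a human epilepsy, had 8.43% ± 0.78 and 8.38% ± 2.24. At each of the 5 genes both cKO values lay above both WT values, as at 59.8% of all loci tested, and after centring on the middle of each list this held for Pcdh10 only. The ratio was largest at Pcdh10, with means of 5.16 ± 0.035 kb in WT and 11.9 ± 2.38 kb in cKO (SD, n = 2). Of the 2 remaining protocadherins, Pcdh20 had 3.40 and 3.02 kb (WT) and 5.76 and 2.74 kb (cKO), or 14.0% ± 5.17, with the genotypes overlapping. Pcdh15, the tip-link partner of Cdh23, had 14.5 and 13.0 kb (WT) and 20.3 and 21.8 kb (cKO), which do not overlap.

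The 250 bases before the start are shown for 4 protocadherins whose starts differ in how the peaks lie over them. They are RefSeq sequence of GRCm38.p6, 5′ to 3′ on the strand of the gene, with each CG dinucleotide in capitals: Pcdh10 is chr3:45378148-45378397 on the plus strand, Pcdh17 is chr14:84443313-84443562 on the plus strand, Pcdh8 is chr14:79771313-79771562 on the minus strand, and Pcdh20 is chr14:88471397-88471646 on the minus strand.
Pcdh10: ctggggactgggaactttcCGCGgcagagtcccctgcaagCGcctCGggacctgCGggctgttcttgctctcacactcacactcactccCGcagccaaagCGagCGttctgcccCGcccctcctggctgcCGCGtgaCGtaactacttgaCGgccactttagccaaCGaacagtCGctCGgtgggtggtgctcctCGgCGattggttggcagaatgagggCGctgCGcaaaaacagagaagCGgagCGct
Pcdh17: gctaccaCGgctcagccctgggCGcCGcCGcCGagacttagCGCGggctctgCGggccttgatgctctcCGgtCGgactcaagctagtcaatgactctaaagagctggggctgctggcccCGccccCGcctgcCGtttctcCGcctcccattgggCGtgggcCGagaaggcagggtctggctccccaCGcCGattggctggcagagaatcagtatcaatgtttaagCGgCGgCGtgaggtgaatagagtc
Pcdh8: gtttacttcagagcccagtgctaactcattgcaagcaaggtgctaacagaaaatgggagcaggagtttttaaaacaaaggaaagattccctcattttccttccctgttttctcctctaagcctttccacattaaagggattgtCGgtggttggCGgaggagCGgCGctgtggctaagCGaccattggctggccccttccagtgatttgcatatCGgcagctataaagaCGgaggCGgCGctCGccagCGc
Pcdh20: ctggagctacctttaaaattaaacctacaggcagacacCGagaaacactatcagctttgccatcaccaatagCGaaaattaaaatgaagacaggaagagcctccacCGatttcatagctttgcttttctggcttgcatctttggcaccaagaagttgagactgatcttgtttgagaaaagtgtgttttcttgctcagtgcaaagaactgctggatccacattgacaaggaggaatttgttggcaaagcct
Pcdh10 and Pcdh17 are rich in CG, with 22 and 21 of them and ratios of observed to expected CG of 0.883 and 0.800. Pcdh8 has 11 and a ratio of 0.673, and Pcdh20 has 3 and a ratio of 0.267. The start of Pcdh10 lay under a peak in 1 library, that of Pcdh17 in none, and those of Pcdh8 and Pcdh20 in all 4, so starts of high and of low CG content were found under peaks.

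Around the start of Pcdh10, the WT libraries had narrow separate peaks inside the gene and the cKO libraries had wide ones. The first WT library had peaks of 1371 and 2089 bp that began 3333 and 6507 bp after the start, and the second had peaks of 343 and 2479 bp that began 1329 and 4387 bp after it. In the first cKO library a peak of 7837 bp ran from +785 to +8621 bp relative to the start, and in the second a peak of 11841 bp ran from −3198 to +8642 bp. No base within 1 kb of the start was covered in WT, while 10.8% and 100.0% were covered in cKO.

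Pcdh9 and Pcdh17 also had wider or additional peaks near their starts in cKO. At Pcdh9 the nearest WT peaks began 1428 and 1063 bp after the start and measured 4826 and 3461 bp, and in cKO peaks of 7808 and 7976 bp began at −1414 and −1899 bp and lay over it. At Pcdh17 the WT libraries had peaks of 2539 and 3788 bp that began 2751 and 2559 bp into the gene. The cKO libraries had peaks of 3286 and 3125 bp in that place and, in addition, peaks of 943 and 1001 bp that began 480 and 491 bp after the start. The caller gave these additional peaks a −log10 q of 1.61 and 2.25, and the stricter peak setting described below asks for at least 2. Pcdh8 showed no such difference: a peak of 7826 and 7905 bp in WT and of 9949 and 7965 bp in cKO lay over its start and covered every base within 1 kb in all 4 libraries. These 4 genes were chosen for display after their values were seen.

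**Figure D2:**
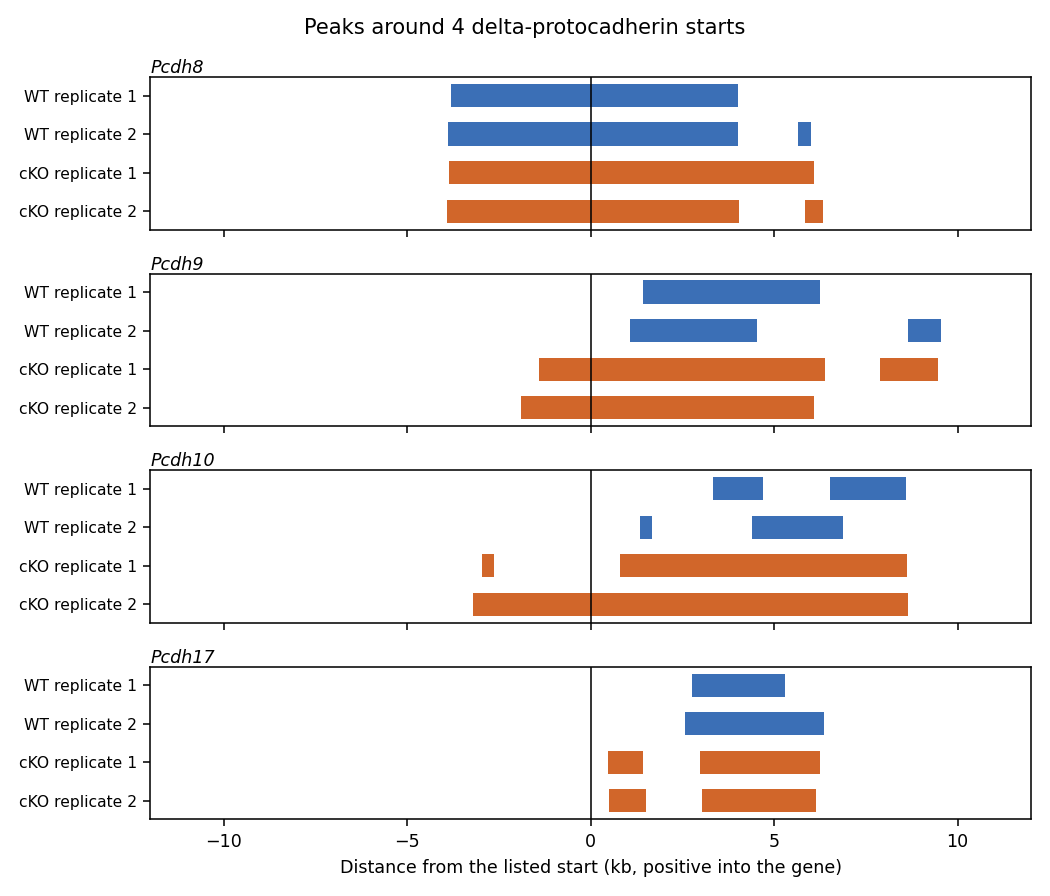
Peaks (bars) within 12 kb of the listed start of Pcdh8, Pcdh9, Pcdh10 and Pcdh17 in each library, by distance from the start in kb with positive values inside the gene; blue is WT and orange is cKO. One peak of 7826 to 9949 bp spans the Pcdh8 start in every library, while at Pcdh9 the start lies under a peak in both cKO libraries and in neither WT library.

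The RefSeq promoter table held 25 starts of 22 members, and Cdh1, Cdh2, Cdh3, Cdh4, Cdh5, Cdh11, Cdh13, Cdh16, Cdh17, Cdh19 and Pcdh1 were not matched in it. A start lay under a peak at 10 of the 25 in each WT library and at 16 in each cKO library, or 40.0% and 64.0%. These counts take the 3 starts of Cdh7 and the 2 of Pcdh9 separately, so a gene can count more than once, as among all starts. Over all 21045 listed starts of protein-coding genes the shares were 32.6% and 27.5% in WT and 38.4% and 42.5% in cKO. The starts under a peak in all 4 libraries numbered 8 (32.0%, against 21.3% of all starts) and were those of Cdh10, Cdh20, Cdh22, Pcdh8, Pcdh15, Pcdh20 and 2 of the 3 starts of Cdh7. In none of the 4 were 6 (24.0%, against 51.0%), those of Cdh9, Cdh23, Cdh26, Pcdh7, Pcdh17 and Pcdh19. The starts under a peak in both cKO libraries and in neither WT library were 2 (8.0%, against 4.30% of all starts), both of Pcdh9, 10 bp apart and under the same peaks, so they are 1 observation from 1 of the 22 genes. None had the opposite pattern. With the lists trimmed to equal covered length, a count added after seeing the data, a mean of 9.0 member starts lay under a peak in WT and 8.0 in cKO, and of all starts 27.9% and 28.2%.

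**Figure D3:**
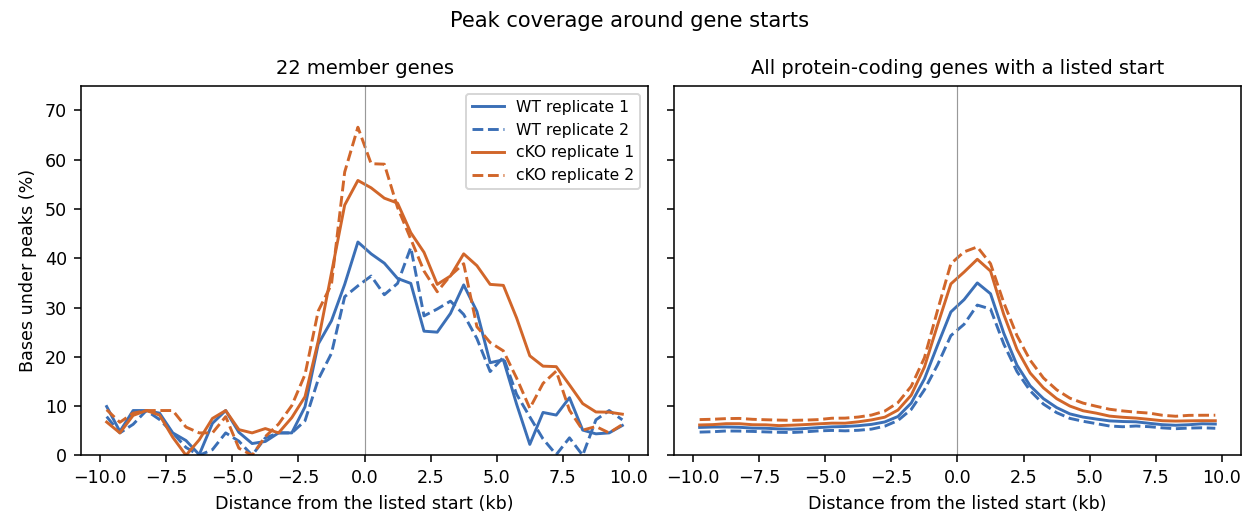
Bases under peaks (%) in bins of 500 bp by distance from the listed start in kb, for 22 member genes (left) and all protein-coding genes with a listed start (right); lines are libraries, blue for WT and orange for cKO, dashed for replicate 2. In the 500 bp before the start the member curves reach 43.3% and 34.4% in WT and 55.8% and 66.6% in cKO, and the curves of all genes 29.1%, 24.3%, 34.8% and 38.9%.

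Coverage of the members was also wider on the gene side of the start. Between 3500 and 4000 bp into the gene, member loci were covered over 34.6% and 28.6% in WT and 40.9% and 38.9% in cKO, against 8.66% to 13.3% over all genes. Starts whose ratio of observed to expected CG was at least 0.6 made up 12 of the 25, and 6 and 5 of them lay under a peak in WT and 8 and 11 in cKO, or 50%, 41.7%, 66.7% and 91.7%. Over all starts with such a ratio the shares were 42.8%, 35.4%, 52.1% and 58.9%. Of the 13 with a lower ratio, 4 and 5 did in WT and 8 and 5 in cKO, or 30.8%, 38.5%, 61.5% and 38.5%, against 24.1%, 20.9%, 27.1% and 29.0% of all such starts. In the 250 bases before the start, searched on both strands, CCAAT was present at 15 of 25 member starts (60.0%, against 35.6% of all starts), the GC box GGGCGG at 9 (36.0%, against 43.1%), the E-box CANNTG at 13 (52.0%, against 62.8%) and TATAAA at 2 (8.0%, against 11.7%). In these counts by CG ratio and motif the 2 Pcdh9 starts, which share nearly all of these bases, count separately. The GC box includes a CG of those in capitals, and the letters of a motif are a description, not a bound site.

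The genotypes were compared at every locus with limma, on log2 of covered bases plus 500, after centring each library on its median over the 14941 loci with a mean of at least 1000 covered bases. The centring takes out the greater length of the cKO lists, so a difference of 0 means a locus that follows the middle of the list of its library. Of the 33 members 31 passed the minimum, all but Cdh9 and Cdh19. No member passed a limma adjusted p of 0.05, and none of the 14941 loci did (0%). The smallest limma adjusted p of any member was 0.407, which was also the smallest of all loci. Without centring the median locus differed by 0.35 on the log2 scale, and 3196 loci had higher and 10 lower values in cKO at an unadjusted p under 0.05, against 830 and 663 with it. At an unadjusted limma p under 0.05 there were 3 members with higher values in cKO (5.56% of all loci) and 1 with a lower value (4.44% of all loci).

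Pcdh10 had the largest difference, 0.73 ± 0.17 (SE; limma adjusted p = 0.407), a ratio of 2.31 in covered bases. Cdh20 differed by 0.49 ± 0.16 (limma adjusted p = 0.474) and Cdh22 by 0.25 ± 0.10 (limma adjusted p = 0.475). At all 3 both cKO libraries lay above both WT libraries, before centring (59.8% of all loci tested) and after it (17.3%). These 3 were picked by p from the same values, so this order adds no further evidence. The centred values of Pcdh10 were 0.23 and 0.45 in WT and 0.96 and 1.18 in cKO, those of Cdh20 were 1.22 and 1.20 against 1.89 and 1.51, and those of Cdh22 were 2.85 and 2.71 against 3.00 and 3.07. Cdh4 was the member with a lower value, at −0.24 ± 0.06 (limma adjusted p = 0.430). Its centred values were 4.57 and 4.56 in WT and 4.30 and 4.35 in cKO, although its covered kb overlapped and their ratio was 1.10, below the 1.29 of the whole lists. Without centring the difference of Cdh4 was 0.14, so its direction is relative to the other loci. With no minimum of covered bases, 183 loci of the series were called higher and 144 lower, and Pcdh10 was among the former (limma adjusted p = 0.04, range over its 15 alternatives 0.04 to 0.923). That fit takes in 4859 loci with no peak in any library, and its median difference was −0.207. Without the first WT library 95 loci were called higher and 3 lower, and without the second 8 and 0, and no member was among them.

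**Figure D4:**
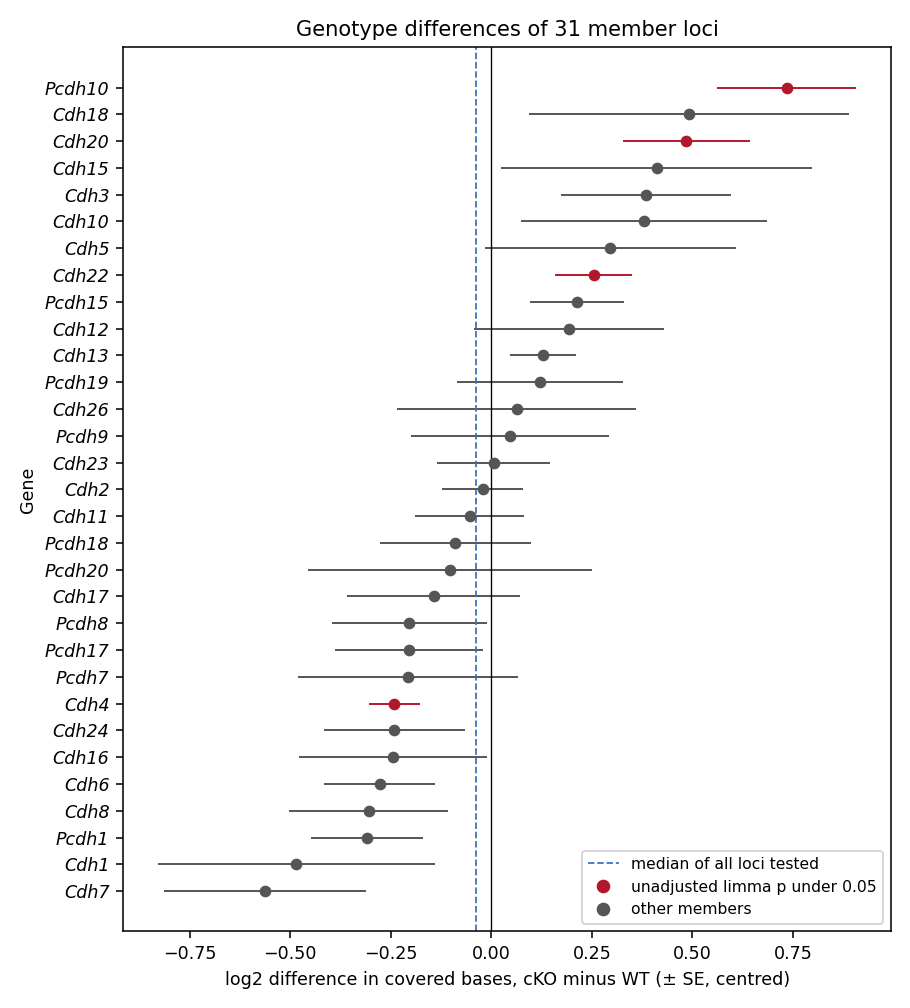
Centred log2 difference in covered bases, cKO minus WT, ± SE from limma for the 31 members past the minimum, ordered by size; the dashed line is the median of all loci tested and red points have an unadjusted limma p under 0.05. Pcdh10 lies farthest to the right at 0.73 and Cdh7 farthest to the left at −0.56, and no member passed after adjustment.

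The other large positive differences were less certain. Cdh18 differed by 0.49 ± 0.40 (SE), Cdh15 by 0.41 ± 0.39 and Cdh3 by 0.39 ± 0.21, each with under 8 kb covered in every library. Cdh18 turned to −0.11 without the first WT library, and Cdh3 to −0.47 when only the gene span was counted. On the negative side Cdh7 differed by −0.56 ± 0.25, Cdh1 by −0.49 ± 0.34, Pcdh1 by −0.31 ± 0.14, Cdh8 by −0.31 ± 0.20 and Cdh6 by −0.28 ± 0.14. Limma adjusted p-values of these 8 genes and of the rest of the members were 0.503 or more. Cdh2 differed by −0.02 ± 0.10, and its covered bases had a ratio of 1.29, the same as the whole lists.

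Over the 31 members 15 differences were positive (45.0% of all loci) and 16 negative, with a median of −0.02, against −0.04 over all loci tested. Before centring, both cKO libraries lay above both WT libraries at 19 of the 31 (59.8% of all loci) and below them at 1, Cdh7 (1.22% of all loci). After centring 6 lay above (17.3% of all loci), namely Cdh3, Cdh15, Cdh20, Cdh22, Pcdh10 and Pcdh15, and 7 below (27.2% of all loci), namely Cdh1, Cdh4, Cdh6, Cdh7, Cdh16, Cdh24 and Pcdh1. These shares are near those of all loci.

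**Figure D5:**
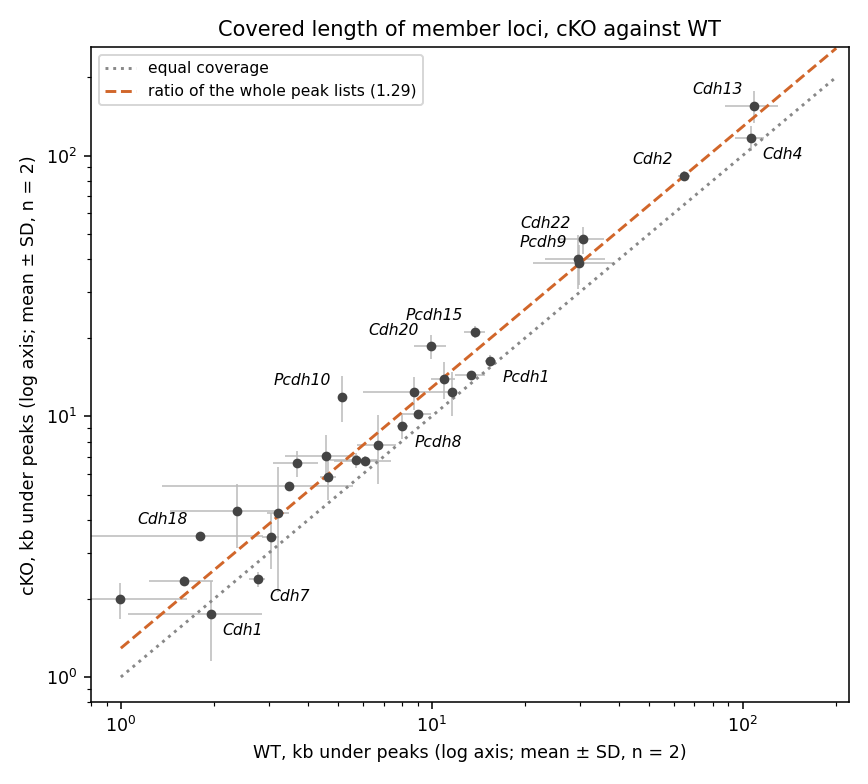
Mean kb under peaks in cKO against WT for the members with a peak in every library (both axes logarithmic; bars are ± SD, n = 2 libraries, and run past the axis at low values). Most members lie near the dashed line, which is the ratio of the whole peak lists (1.29), and the ratios run from 0.862 at Cdh7 to 2.31 at Pcdh10.

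Summed over the 33 loci, 568.1 and 488.9 kb lay under peaks in WT and 673.4 and 712.3 kb in cKO, out of 10100 kb. The members thus held 0.436% and 0.429% of all covered bases in WT and 0.454% and 0.428% in cKO, ranges that overlap. The ratio of cKO to WT was 1.31 for the members, 1.19 for type I, 1.4 for type II, 1.38 for the other cadherins, 1.24 for delta-1, 1.39 for delta-2 and 1.49 for Pcdh15 and Pcdh20 together. Peaks in member loci had the width of other peaks, with medians of 1176 and 1140 bp in WT and 1239 and 1333 bp in cKO, against 1171, 1168, 1243 and 1337 bp in the whole lists. Their median fold enrichment, the authors' own value, was 3.96, 3.67, 3.91 and 3.78 in the same order, against 4.15, 3.72, 3.99 and 3.81.

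Regions of at least 200 bp under peaks in both libraries of 1 genotype and in neither of the other were counted next. There were 20 in member loci that only cKO had, spread over 10 of the 33 loci (14.0% of all loci have one), and 2 that only WT had, in 2 loci (1.59% of all loci). These were 0.358% of the 5591 regions that only cKO had in the whole lists and 0.344% of the 581 that only WT had, both below the share of all covered bases that the members held, and the whole lists also had more on the cKO side. Long loci have more room for such regions, and the shares of loci are not corrected for length. Cdh13 held 7 of the former, of 328 to 878 bp, and 1 of the latter. Cdh2, Cdh4, Cdh20 and Pcdh15 held 2 each that only cKO had, and Cdh10, Cdh11, Cdh22, Pcdh10 and Pcdh17 held 1. The longest was that of Pcdh17, 932 bp at chr14:84444054-84444985, which begins 491 bp after the start. Its peaks had a −log10 q of 1.61 in the first cKO library and 2.25 in the second, and the stricter peak setting asks for at least 2. The one at Pcdh10, 341 bp at chr3:45375421-45375761, ends 2637 bp before the start of that gene. At Cdh11, a cadherin of mesenchyme and of neurons, 577 bp at chr8:102693585-102694161 was covered in WT only. With the lists trimmed to equal covered length the counts in member loci were 4 for cKO and 38 for WT. That trimming takes most from the cKO lists. The whole lists were not counted under it, so these counts cannot be read as a trait of the members.

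Genes that work with cadherins or are related to them were taken from 3 lists. These lists were chosen with earlier results of these data known, so their shares are a description and not independent evidence. Of 17 junction partners (catenins, nectins, vinculin and others), all passed the minimum, 4 had higher values in cKO at an unadjusted limma p under 0.05 (23.5%, against 5.56% of all loci) and none lower (4.44% of all loci). None passed after adjustment, and the median difference was 0.07. Arvcf, a catenin of the p120 family, had the highest covered share, 41.5% ± 6.14 (SD, n = 4), with 28.1 and 29.3 kb (WT) and 35.5 and 38.1 kb (cKO). Jup (plakoglobin, the catenin of desmosomes) had the largest difference, 0.80 ± 0.24 (SE; limma adjusted p = 0.459), with 5.83 and 3.28 kb (WT) and 11.7 and 9.57 kb (cKO), and it was −0.74 with the lists trimmed to equal covered length. Beta-catenin itself (Ctnnb1) differed by −0.09 ± 0.12.

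Of 18 large and atypical cadherins 16 passed the minimum, and 3 differences were positive (18.8%, against 45.0% of all loci) and 13 negative, with a median of −0.08 against −0.04 over all loci. Only Celsr1 had an unadjusted limma p under 0.05, at −0.29 ± 0.07 (limma adjusted p = 0.412). Celsr2, a cadherin of planar cell polarity as is Celsr1, had the highest covered share, 54.7% ± 4.88 (SD, n = 4), with 23.9 and 22.6 kb (WT) and 24.7 and 27.8 kb (cKO). Pcdh11x, an X-linked delta-protocadherin, had the largest difference, −0.51 ± 0.50, from 3.24 and 1.06 kb (WT) and 0.884 and 3.04 kb (cKO), which overlap. Of 7 desmosomal cadherins, Dsc1 and Dsg1a had no peak in any library and 2 passed the minimum. Dsg2 had the highest share of these, 5.95% ± 2.36, with 3.04 and 2.27 kb (WT) and 4.87 and 5.64 kb (cKO) and an unadjusted limma p under 0.05 at a difference of 0.49 ± 0.21 (limma adjusted p = 0.497).

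Among the 11 cortical markers all 11 differences were negative, with a median of −0.27, where 45.0% of all loci were positive and their median was −0.04. Of these 5 had an unadjusted limma p under 0.05, against 4.44% of all loci on this side. Their median covered share was 62.4% and 62.3% in WT and 65.0% and 67.0% in cKO. Of the 6 member loci with over 20% covered, those of Pcdh1, Cdh4, Cdh24, Pcdh8 and Cdh2 had negative differences, from −0.31 to −0.02, and that of Cdh22 was 0.25. The part of the covered share of a locus in its difference was not tested.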

How the data were processed

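The submitters' processing notes name MACS2 2.1.1, Bowtie2 2.2.8, cutadapt and FastQC, and the build mm10. How peaks were called, reads filtered and inputs used is not given in the sources used here. The 4 inputs were not analysed here. Each ChIP library has its own list of broad peaks, deposited by the authors, so replicates were not pooled before calling. Each deposited line gives coordinates, a score, a fold enrichment (a ratio) and −log10 p and −log10 q values, as the authors' caller wrote them. Fold enrichment and q were used within 1 list only. A library sequenced more deeply, or with a better precipitation, gives more and wider peaks, and covered bases inherit this. Depth is unknown, so no counting interval was computed.

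Covered bases per locus were computed in Python 3.11.15 with numpy 2.4.6 and pandas 2.3.3, for genes on the autosomes and X. The genotype comparison used limma 3.58.1 (R 4.3.3; trended eBayes, log2 of bases plus 500, a mean of at least 1000 bases, centring on the median, Benjamini-Hochberg adjustment over all 14941 loci, threshold 0.05). The code of the fit was checked on simulated data in which every locus had the same spread. The loci here differ in spread, so that check gives no rate of error or recovery for the members. With 2 libraries per genotype, the genotypes share replicate numbers, but no label says that a number marks a shared litter or batch, and the fit has no block. Exons, introns and peak sequences were not used here. Alternatives were stricter peaks (−log10 q of at least 2), equal numbers of peaks, equal covered length, other pseudocounts, no minimum, no centring, cyclic loess, other flanks, a replicate block and leaving out each library.

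The members and lists were chosen with earlier results of these data known. One gene of the cortical marker list is not reported here. Named are the 10 members with the highest covered share, the 5 with the largest positive and the 5 with the largest negative difference, those with an unadjusted limma p under 0.05, those with no peak, and of each companion list the one with the highest share and the one with the largest difference.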

Additional observations from a re-analysis of the deposited data

How the results depend on the processing

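No locus passed a limma adjusted p of 0.05 with the settings of the report. The counts of loci higher and lower in cKO were 183 and 144 with no minimum of covered bases. That fit also tests thinly covered loci and 4859 loci with no peak in any library. Its median difference was −0.207, and 6462 loci had lower values in cKO at an unadjusted limma p under 0.05, against 663 with the minimum. Leaving out 1 library gave 0 to 95 higher and 0 to 3 lower, the largest counts without WT replicate 1. The fit with the replicate number as a block called 0 higher and 0 lower. The deviations of same-numbered libraries had a correlation of −0.0962 over 14941 loci. With 2 pairs this cannot tell whether same-numbered libraries shared a litter or batch. No member was called with the block or without it, so no call could be lost.

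Of 309 values of the 21 named genes under these alternatives, 275 kept direction and side of the threshold, 32 turned in sign and 2 passed it, Pcdh10 (0.67) and Jup (0.73) with no minimum. Pcdh10, Cdh20, Cdh22, Cdh13 and Cdh15 stayed positive and Cdh7 negative under every alternative that gave a value (12 for Cdh15 and 15 for the others). The ranges were 0.56 to 1.2 for Pcdh10, 0.23 to 0.88 for Cdh20 and 0.18 to 0.64 for Cdh22. Those of Cdh13 (0.0013 to 0.51) and Cdh15 (0.068 to 0.79) came close to no difference, and that of Cdh7 was −2.0 to −0.18. Without centring, which leaves in the longer cKO lists, the differences turned positive for Cdh2 (0.36), Cdh4 (0.14), Cdh6 (0.11), Cdh8 (0.078), Cdh24 (0.14), Pcdh1 (0.075), Pcdh8 (0.18), Pcdh18 (0.29) and Pcdh20 (0.28). With equal covered length they turned for Cdh1 (0.034), Cdh2 (0.015), Cdh24 (0.11), Pcdh8 (0.10), Pcdh18 (0.26), Jup (−0.74) and Dsg2 (−0.60). With equal numbers of peaks they turned for Cdh2 (0.061), Cdh3 (−0.12) and Pcdh20 (0.057), with stricter peaks for Cdh2 (0.0025) and Dsg2 (−0.087), and over the gene span only for Cdh2 (0.017), Cdh3 (−0.47) and Cdh24 (0.036). Cdh2 also turned with a pseudocount of 2000 bases (0.058) and with cyclic loess (0.059). Leaving out a library turned Cdh2 (0.037 without WT replicate 2, 0.10 without cKO replicate 2; −0.15 to 0.10 over the 4), Cdh18 (−0.11 without WT replicate 1; up to 1.1), Pcdh20 (0.45 without cKO replicate 2; down to −0.66) and Pcdh11x (0.021 without WT replicate 1, 0.082 without cKO replicate 1; down to −1.1). The cause was not tested.

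Regions in member loci that only cKO had, 20 in the report, numbered 11 with equal numbers of peaks, 4 with equal covered length, 9 at a minimum of 500 bp and 34 to 59 when 1 library was left out, which asks for fewer libraries. Those that only WT had, 2 in the report, numbered 5, 38, 1 and 4 to 16. Regions of the whole lists were not counted under these alternatives, so no share over all loci stands beside these counts. With equal covered length the median covered share was 4.49%, the members held 0.412% of covered bases, the ratio of cKO to WT was 0.981 and a mean of 8.0 member starts lay under a peak in cKO, as the lists are shortened. The members held 0.401% of covered bases over gene spans only and 0.471% with 25 kb on either side. The count of starts under each setting was added after seeing the data. With unknown depth and 2 libraries per genotype, a thinly covered locus can gain or lose a peak at the caller's threshold in a single library.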
